A study of Mus musculus with 5 samples.

Results

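Among 30398 RAP1 peaks listed in mouse embryonic fibroblasts, 2001 held no more positive reads than scaled negative reads in the windows that the deposited list counts strand by strand. The positive set was read as the immunoprecipitates of 2 wild-type lines and the negative set as those of 2 Rap1-deleted lines, following the design text, although the headers of the list name the sets only as positive and negative. The peaks were chosen by these same reads. A peak was taken when its negative strand-window reads were above 0 and its positive ones were at most 3.32 times the negative ones. The 3.32 is the depth factor between the read sets, solved from a small part of the deposited folds. These peaks made up 6.58% of the list (exact 95% interval 6.31 to 6.87) and 35.1% of the 5707 peaks with any negative strand read (33.8 to 36.3). The remaining 3706 of those lay above the negative level, and 24691 peaks had no negative strand read.

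All 5 libraries came from embryonic fibroblasts carrying SV40 large T, which immortalises cells by inactivating the p53 and retinoblastoma tumour suppressors, and were grown in medium with serum and puromycin. The wild-type lines (WT_1 and WT_2) and the Rap1-deleted lines (RAP1_ko1 and RAP1_ko2), described as independent and of mixed background, were all precipitated with an antibody against RAP1, and 1 input library was made without antibody. How Rap1 was deleted, and whether each line is a single clone, is not in the labels. The list pools the libraries of each read set, so no value here has a spread between lines, and no test between genotypes was possible.

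RAP1 belongs to shelterin, the complex that coats telomeric TTAGGG repeats, and it is carried to telomeres by TRF2. It also associates with sites along chromosome arms, where it has been linked to gene control. In cells without the protein, an antibody against it can only bring down DNA non-specifically, so reads from such cells give the local background of the procedure. In chromatin immunoprecipitation generally, that background is known to be uneven, with more reads over chromatin that shears easily and over repeats present in more copies in the genome than in its assembly. Neither open chromatin nor repeat content was measured here, so whether these peaks lie in either was not tested, and no peak was assigned to a gene because no annotation of the build of the list (mm9) was used.

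Since the read ratio chose the peaks, the values of both read sets are a description. Positive strand-window reads had a median of 27 per peak, with quartiles of 24 and 33 and extremes of 20 and 94. Negative ones had a median of 13, with quartiles of 10 and 17 and extremes of 7 and 54. Scaled by the depth factor, the negative median was 43.2 reads. The ratio of positive to scaled negative reads had a median of 0.683 (interquartile range 0.514 to 0.837), and it ran from 0.141 to 0.998. It was at most 0.5 in 451 peaks, above 0.5 and up to 0.75 in 745, and above 0.75 in 805. Summed over the 2001 peaks, 58389 positive stood against 28857 negative reads, a ratio of 0.610 (exact conditional binomial 95% interval 0.601 to 0.618).

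Their median of 27 positive reads equalled that of the peaks without negative reads, which spanned the same quartiles, 24 and 33. Peaks with negative reads above the level had a median of 32 positive and 5 negative reads. Because every listed peak had at least 10 positive reads on each strand, a peak needed at least 7 negative reads to be counted here. Of the 1930 peaks with 10 or more negative strand reads, 1621 (84.0%, 82.3 to 85.6) were at or below the negative level, and of the 320 with 20 or more, 313 (97.8%) were. The other 7 peaks with that many negative reads had enough positive ones to stand above the level. More negative reads raise the level set by the rule, so both shares are a description only.

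**Figure D1:**
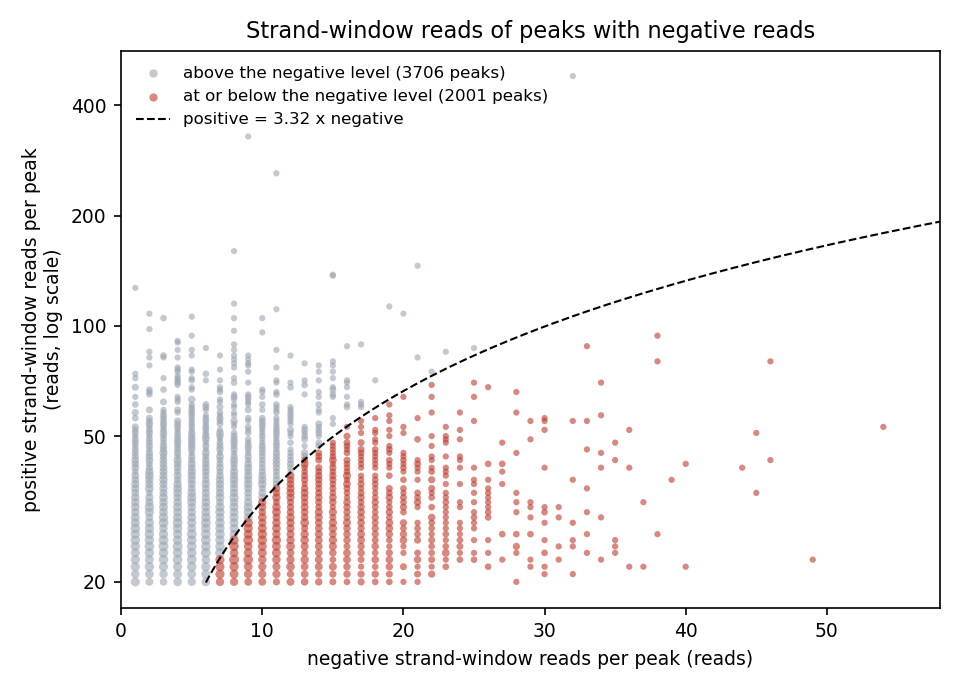
Positive (vertical axis, reads, log scale) against negative (horizontal axis, reads) strand-window reads for the 5707 peaks with negative strand reads, each dot a pair of values and larger where more peaks share it. The dashed curve marks 3.32 positive reads per negative read, and the 2001 peaks at or below it (red) reach from 7 to 54 negative reads while staying between 20 and 94 positive reads.

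For most single peaks the counts were too low to place the ratio firmly under 1. The 95% interval lay wholly at or under 1 in 472 of the 2001 peaks (23.6%) and wholly at or under 2 in 1620. The peaks nearest the threshold have ratios close to 1 by choice. The nearest inside, on chromosome 4 from 106580157 to 106580477, had 53 against 16 reads (0.998, 0.562 to 1.87). The other two nearest inside, on chromosome 2 from 39023970 to 39024033 and chromosome 18 from 67551004 to 67551067, each had 43 against 13 reads. Nearest outside were peaks on chromosome 15 from 10925963 to 10926031, chromosome 5 from 103724261 to 103724321 and chromosome 13 from 32424134 to 32424163. Each of these had 30 against 9 reads, a ratio of 1.004 (0.465 to 2.40).

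The other deposited count placed none of these peaks at the Rap1-deleted level. Over the whole peak, 1993 of the 2001 peaks (99.6%) had 0 negative reads, as did 3639 of the 3706 peaks above the level (98.2%). The sums over the 2001 peaks were 59008 positive against 17 negative reads. By the whole-peak columns, 0 of the 30398 listed peaks were at or below the negative level, so that count does not set the 2001 apart. The name of these peaks therefore holds for the strand windows only. Both counts were deposited for the same peaks, and the headers of the list do not say how the strand windows and the whole-peak reads were drawn.

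The 8 exceptions, chosen after their values were seen, held 1 to 4 negative reads over the whole peak. The peak with 4 lies on chromosome 11 from 3079599 to 3079763, with 107 positive and 4 negative whole-peak reads and 94 against 38 strand-window reads (0.745, 0.506 to 1.12). The chromosome 13 peak from 12487642 to 12487671 had 63 positive and 3 negative reads by that count, and 43 against 35 in the strand windows (0.370, 0.231 to 0.596). For chromosome 19 from 10651741 to 10651802 these were 50 and 1, and 57 against 34 (0.505, 0.325 to 0.797). All 3 thus had far fewer negative reads by the whole-peak count than by the strand windows.

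The place of the negative reads differed by strand. Around a bound protein, forward reads pile up upstream of the site and reverse reads downstream. The negative windows lay in the opposite order. The highest forward negative window lay past the middle of the peak towards its downstream edge in 1180 of 1243 entries (94.9%, 93.6 to 96.1), and beyond that edge in 556 (44.7%). The highest reverse negative window lay towards the upstream edge in 1128 of 1201 entries (93.9%, 92.4 to 95.2), and beyond it in 562 (46.8%).

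In the 443 peaks with negative reads on both strands, the reverse negative mode (its highest window) lay downstream of the forward one in 0, upstream in 378, and at the same base in the rest. The median offset was -44 bp (interquartile range -80.5 to -12). In the same 443 peaks the reverse positive mode lay downstream of the forward one in 390 (88.0%), and the median offset over all 443 was 31 bp. The 2 read sets thus mostly had opposite strand orders in the same peaks.

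How far negative windows reached into a peak also had a sharp limit. The distance of 64 bp was taken from the data, as the largest reach inward of the upstream edge among 3135 reverse entries. These are all reverse entries with negative reads in peaks whose whole-peak negative count was 0. None of them could thus lie deeper, and 177 lay at exactly 64 bp against 12 at 1 bp less. Of the corresponding 3112 forward entries, which did not set the distance, 4 lay deeper than 64 bp, 169 at exactly 64 bp and 11 at 1 bp less. Among the 2001 peaks, no forward entry and 1 reverse entry, in a peak that had a whole-peak negative read, passed that limit. Their entries at 48 to 64 bp came mostly from peaks of 120 bp or more (97 of 125 forward and 97 of 126 reverse entries of those peaks). In peaks of 32 to 40 bp none of the 174 forward or 172 reverse entries lay more than 15 bp inward. At 29 to 31 bp, 17 of 430 forward and 24 of 438 reverse entries lay that deep. At 61 to 80 bp, 6 of 160 forward entries did.

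This layout was shared with the peaks above the negative level. There the highest negative window lay towards the far edge in 97.0% of 1922 forward and 98.4% of 1986 reverse entries, and the reverse negative mode lay downstream in 2 of 202 peaks with negative reads on both strands. It was thus found on both sides of the level. Nearly all of these peaks, 99.6% at or below the level and 98.2% above it, had 0 whole-peak negative reads. Such a count may itself limit where negative windows can lie, and this was not tested.

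**Figure D2:**
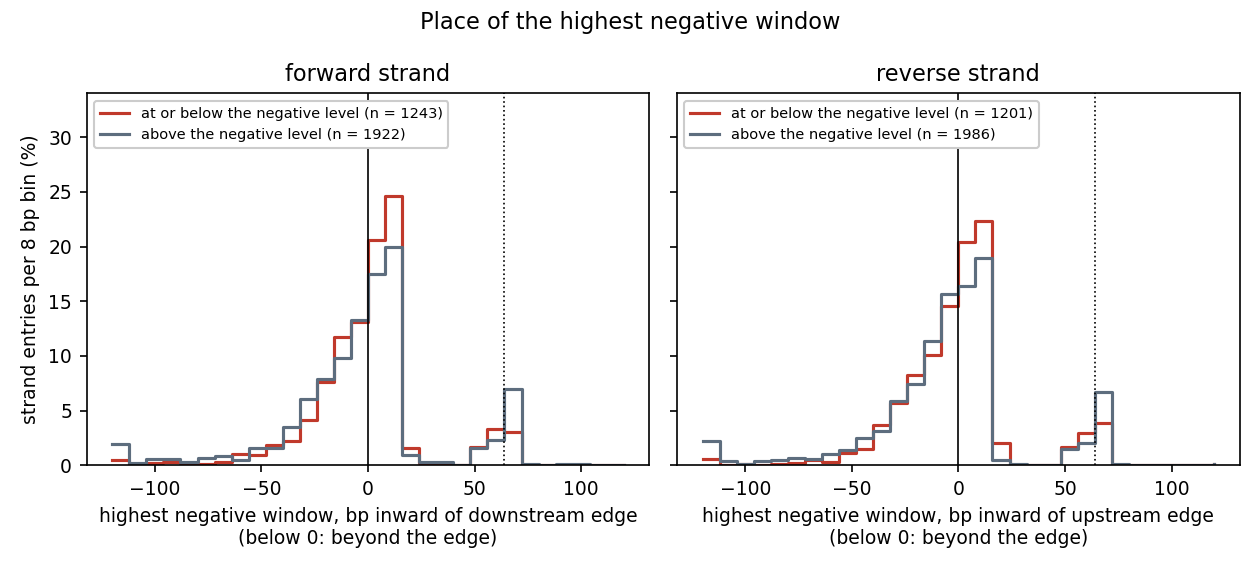
Distance of the highest negative window from the far edge of the peak (bp inward, below 0 beyond the edge) as a percentage of strand entries per 8 bp bin, for forward (left) and reverse (right) entries, with the outermost bins holding all entries further out. The solid line marks the edge and the dotted line 64 bp, and in both classes of peak the entries gather at the edge with a second, smaller heap up to 64 bp.

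Control reads mostly came from a single strand. Among the 2001 peaks, 800 had negative reads on the forward strand only, 758 on the reverse strand only and 443 (22.1%, 20.3 to 24.0) on both. In the 1558 peaks with a single such strand, that strand held a median of 13 positive and 12 negative reads, a same-strand ratio of 0.356 (interquartile range 0.266 to 0.430). The opposite strand held a median of 13 positive reads and no negative one. Above the negative level, 202 of 3706 peaks (5.45%) had negative reads on both strands. Because the rule takes the sum over strands, that difference is a description only.

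All negative reads of a strand fell in its highest window in 2443 of 2444 entries, whereas all positive reads did so in 3100 of 4002 (77.5%). Peaks above the level shared this, with 3902 of 3908 negative and 4713 of 7412 positive entries (63.6%). Nearly every negative count of a strand therefore lay within 1 window. Copies made by PCR were not separated from independent fragments in either read set, and their part was not tested. Peaks with control reads on both strands lay further below the threshold, with a median ratio of 0.565 against 0.712 for a single strand. Their interval was wholly at or under 1 in 187 (42.2%) against 285 of 1558 (18.3%). The rule uses these same reads, summed over strands, so this contrast is a description only.

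The peaks were short. Their median length was 42 bp (interquartile range 31 to 65, full range 29 to 580), against 51 bp for peaks above the negative level and 57 bp for peaks without negative reads. A length of 29 to 31 bp, the shortest in the list, was found in 667 (33.3%, 31.3 to 35.5), against 23.3% above the level and 15.7% without negative reads. Those with control reads on both strands were shortest, with a median of 35 bp and 201 of 443 (45.4%) at 29 to 31 bp. Length was not used by the rule, but it comes from the same reads and has no replicate.

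Read by length, the share at or below the negative level was lowest at 81 bp to under 120 bp. It was 12.3% of the 5407 peaks of 29 to 31 bp (11.5 to 13.2), 9.43% at 32 to 40 bp, 5.42% at 41 to 60 bp, 3.95% at 61 to 80 bp, 3.55% from 81 bp to under 120 bp and 6.05% at 120 bp or more. Any negative strand read was found in 28.3% of the shortest and 24.0% of the longest peaks, against 13.8% from 81 bp to under 120 bp. Within the peaks that had negative reads, the share fell with length, from 43.5% of 1532 at 29 to 31 bp to 25.3% of 764 at 120 bp or more. That last share reads the ratio of the rule itself and is a description. In the peaks above the level, the median of positive reads, which the rule uses, was 29 at 29 to 31 bp and 40 at 120 bp or more, while that of negative reads was 5 at both.

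**Figure D3:**
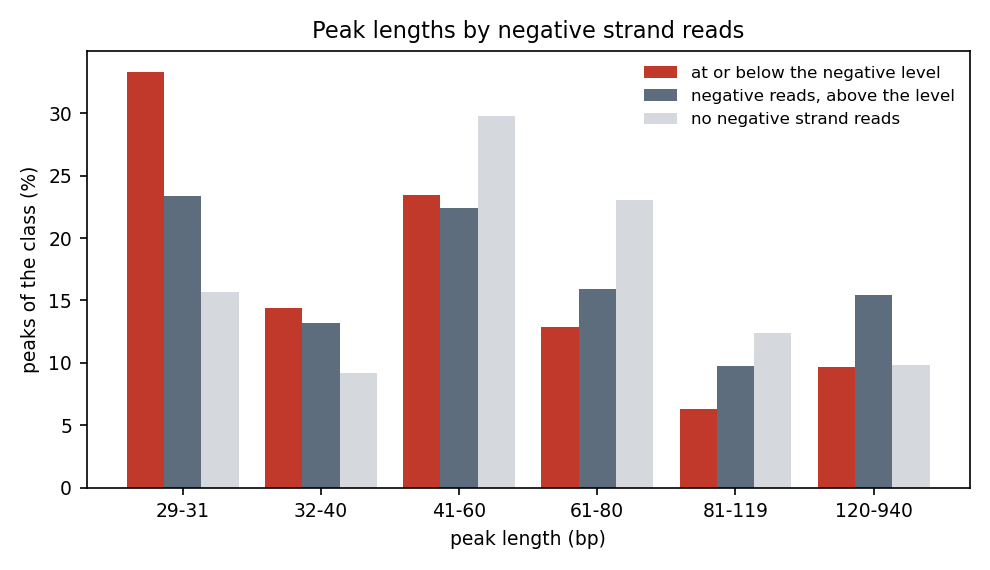
Percentage of each class of peak (vertical axis) in 6 classes of length (horizontal axis, bp), with bars for peaks at or below the negative level, peaks with negative reads above it, and peaks without negative strand reads. At 29 to 31 bp the 3 classes hold 33.3%, 23.3% and 15.7% of their peaks, and at 61 to 80 bp the order is reversed.

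Strand modes of the wild-type reads were closer together than in most of the list. The reverse positive mode lay a median of 37 bp downstream of the forward one (interquartile range 25 to 56), against 52 bp over all peaks and 54 bp in those without negative reads. A peak ran exactly from its forward to its reverse mode in 877 of the 2001 (43.8%), in 51.9% of peaks above the level and in 84.2% without negative reads. Within each class of length under 120 bp the median offsets of the 3 classes lay within 2 bp of each other, with values of 50, 50 and 51 bp at 41 to 60 bp. The shorter offset of the whole set goes with its shorter peaks. Where a peak runs exactly from mode to mode, its length sets its offset, so length and offset are not independent measures.

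At 120 bp or more the order of the strands turned. The reverse mode lay at or upstream of the forward one in 151 of the 193 longest peaks at or below the level (78.2%, 71.7 to 83.8), and the median offset over all 193 was -17 bp. In peaks of that length above the level the share was 68.3% (64.3 to 72.1), and without negative reads 62.6% (60.7 to 64.6). The 5 longest all had this order. The longest, on chromosome 17 from 23811267 to 23811846, is 580 bp and had 88 positive and 33 negative reads (0.803, 0.533 to 1.24), with an offset of -88 bp. Next came 2 peaks on chromosome 1, from 75187213 to 75187685 with 61 against 19 reads (0.967, 0.570 to 1.71) and from 44175740 to 44176209 with 70 against 25 (0.843, 0.527 to 1.39). The other two lie on chromosome 19 from 10594769 to 10595224 (50 against 19 reads, 0.793) and chromosome 5 from 124183459 to 124183908 (38 against 26 reads, 0.440, 0.260 to 0.755). In each of the 5, every highest negative window lay 50 to 64 bp inward of the far edge.

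The heaviest control reads were found at sites on 8 different chromosomes. On X from 166437687 to 166437735, 54 negative reads stood against 53 positive ones (0.296, 0.199 to 0.440), with 5 negative reads forward and 49 reverse. On chromosome 16 from 14237696 to 14237724, a 29 bp peak had 49 negative (20 forward, 29 reverse) and 23 positive reads, and its ratio of 0.141 (0.0822 to 0.237) was the lowest of all. Both had 0 negative reads over the whole peak, with 31 and 18 positive ones.

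A second X peak, from 146913148 to 146913177, had 46 negative reads against 43 (0.282, 0.181 to 0.436), and a 211 bp peak on chromosome 15 from 74916542 to 74916752 had 46 against 80 (0.524, 0.360 to 0.770). On chromosome 11, the peak from 3058162 to 3058191 had 45 against 51 (0.341) and that from 3063186 to 3063214 had 39 against 38 (0.293). These 2 belong to 1 dense group described further on. The peak on chromosome 17 from 71087080 to 71087108 had 44 against 41 reads (0.281), 33 of the 44 on the reverse strand.

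In 3 of the 10 peaks with most control reads, all of those reads were on 1 strand. Chromosome 3 from 59214850 to 59214878 had 45 reverse negative reads against 35 positive ones (0.234, 0.146 to 0.373). Chromosome 8 from 8647348 to 8647389 had 40 forward negative reads against 42 (0.316). Chromosome 6 from 40252768 to 40252817 had 40 reverse negative reads against 22 (0.166, 0.0938 to 0.286).

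Besides the chromosome 16 and chromosome 6 peaks already given, the 5 lowest ratios included 3 others with 21 or 22 positive reads. On chromosome 10 from 111362789 to 111362817, 22 stood against 37 negative reads (0.179, 0.101 to 0.312), and both deposited single-strand log2 folds were below 0 (-3.15 forward, -1.08 reverse). On chromosome 5 from 104171212 to 104171277, 22 stood against 36 negative reads, all forward (0.184, 0.103 to 0.322). On chromosome 16 from 91969987 to 91970028, 21 stood against 32 (0.198, 0.108 to 0.354).

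High rank in the authors' list did not keep a peak out. The rank and the deposited false discovery rate come from the same read sets and are given as description only. Of the 2001 peaks, 58 ranked in the best 1000 (2.90%, against 8.28% of peaks above the negative level). These 58 of 1000 stood beside 2001 of 30398 in the whole list (6.58%). In the better 50% of the list were 951 (47.5%), and 1068 (53.4%) had a deposited rate at or under 0.01, against 55.9% of all peaks. Above the negative level 61.8% ranked in the better 50%.

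The best-ranked, at 84, lies on chromosome 11 from 3042324 to 3042425. It had 80 against 38 strand-window reads (0.634, 0.426 to 0.959) and a deposited rate of 6.9e-05. Rank 97 on chromosome 17 from 6016579 to 6016608 had 49 against 29 (0.509, 0.315 to 0.836), and rank 129 on the same chromosome from 6098021 to 6098106 had 50 against 16 (0.941, 0.527 to 1.77). Rank 132 on chromosome 16 from 20693146 to 20693176 had 69 against 22 (0.945, 0.577 to 1.60). Rank 140, on chromosome 3 from 89802619 to 89802648, had 33 against 26 reads (0.382, 0.222 to 0.666). The highest deposited log2 fold of this peak, 5.67, stood beside single-strand folds of -1.66 forward and -0.96 reverse. All 5 had 0 whole-peak negative reads and 50 to 76 whole-peak positive reads.

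The peaks lay on chromosomes 1 to 19 and X, and none on Y, which holds 1 listed peak. They made up the largest share of the listed peaks on chromosome 17 (130 of 1316, 9.88%, 8.32 to 11.6) and chromosome 11 (215 of 2191, 9.81%, 8.60 to 11.1). The smallest shares were on chromosome 18 (43 of 969, 4.44%, 3.23 to 5.93) and chromosome 1 (107 of 2272, 4.71%, 3.88 to 5.66). X held 23 of 457 (5.03%, 3.22 to 7.46). Within peaks that had negative strand reads, the shares lay closer together, from 29.7% on chromosome 9 (24.8 to 35.0) to 39.1% on chromosome 8 (33.5 to 44.9), and the intervals of these 2 extremes overlap. The intervals count peaks as independent, which neighbouring peaks are not.

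**Figure D4:**
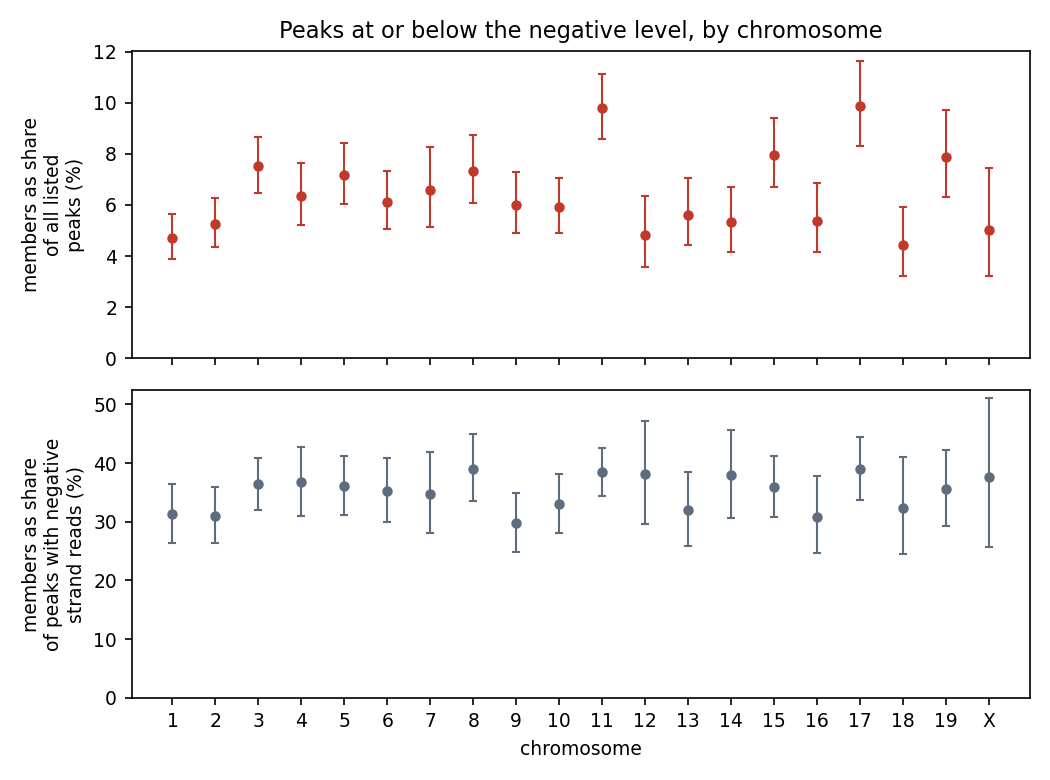
Peaks at or below the negative level by chromosome (horizontal axis) as a percentage of all listed peaks (top) and of peaks with negative strand reads (bottom), with exact 95% binomial intervals that cover counting error only. Chromosomes 11 and 17 stand highest at the top, at 9.81% and 9.88%, while all chromosomes lie between 29.7% and 39.1% at the bottom.

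The share rose with the number of listed peaks in the same 1 Mb bin. It was 3.14% (63 of 2004) where a bin held 1 to 5 peaks, 4.27% at 6 to 10, 5.53% at 11 to 15, 6.06% at 16 to 20, 8.28% at 21 to 30 and 10.6% (9.53 to 11.8) at 31 to 50. The 4 bins with more than 50 peaks gave 52 of 283 (18.4%, 14.0 to 23.4), and 23 of 222 (10.4%, 6.68 to 15.1) without the group on chromosome 11 described further on. As a share of peaks with negative reads, the values stayed between 33.9% and 37.5% in all 7 classes of bin, except that the densest gave 25.3% (16.8 to 35.5) without that group. Bins with more listed peaks thus held a larger share with control reads, of any ratio.

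**Figure D5:**
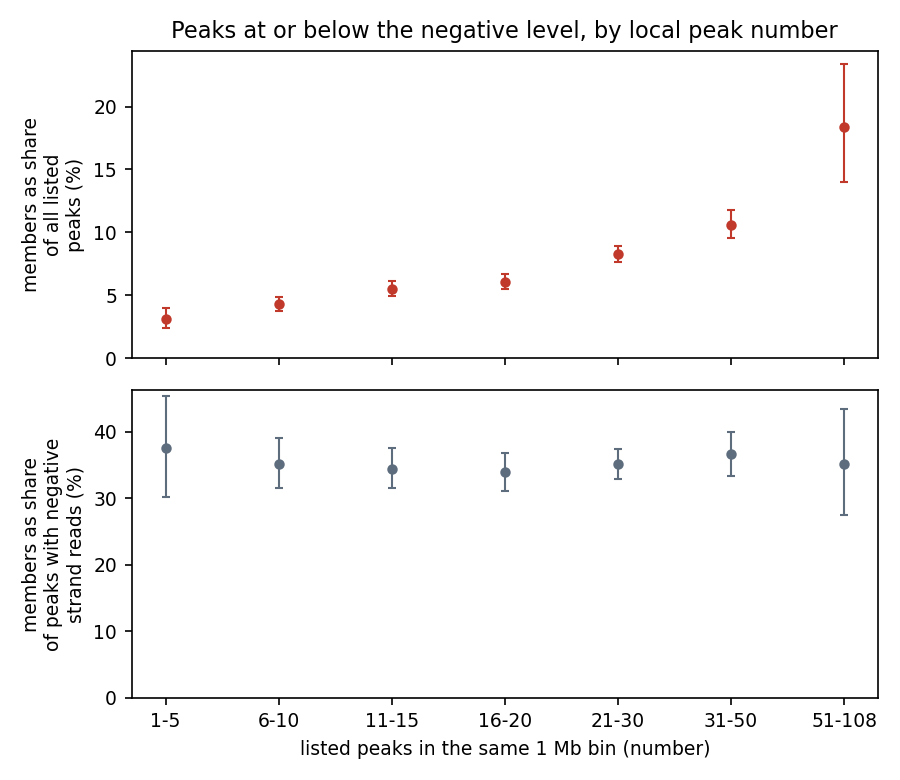
Peaks at or below the negative level as a percentage of all listed peaks (top) and of peaks with negative strand reads (bottom), by the number of listed peaks in the same 1 Mb bin (horizontal axis), with exact 95% binomial intervals that cover counting error only. The upper values climb from 3.14% to 18.4%, and the lower ones run between 33.9% and 37.5%.

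Neighbours were counted by distance and by class. Another listed peak lay under 10 kb away for 897 of the 2001 (44.8%, 42.6 to 47.0), against 46.0% of peaks above the level and 32.1% of those without negative reads. Another peak at or below the level lay that near for 187 (9.35%, 8.11 to 10.7), against 8.69% and 3.43%. Under 1 kb, 250 of the 2001 had a listed neighbour (12.5%, against 12.7% and 4.97%). The nearest such neighbour was itself at or below the level for 59 of the 250 (23.6%, 18.5 to 29.4), against 6.58% of the list. It had negative reads above the level for 79, against 3706 of the 30398 listed peaks, and no negative strand read for 112 (44.8%, 38.5 to 51.2), against 24691 of the 30398. These nearest neighbours thus held a larger share of peaks with control reads than the list as a whole. The dense group on chromosome 11 described further on was kept in these counts, and the intervals treat neighbouring peaks as independent. The difference was not tested.

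Towards the chromosome ends, measured from the first and last listed peaks of these telocentric chromosomes, the distal 2 Mb held 51 of the 2001 (2.55%, 1.90 to 3.34), against 2.47% of all listed peaks. The proximal 2 Mb, next to the centromere, held 70 (3.50%, 2.74 to 4.40), against 1.91% of all. Without the group on chromosome 11, which lies there, the proximal share was 2.08% (41 peaks).

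When neighbours no more than 10 kb apart were joined, the 2001 peaks formed 1889 groups, of which 1814 were single peaks, 67 pairs, 4 of 3 peaks and 3 of 4 peaks. The largest, with 29 peaks, lies near the centromere of chromosome 11 from 3042324 to 3100104. Its 29 peaks held 1232 positive reads against 649 negative (ratio 0.572, 0.520 to 0.630), with 11 to 45 negative reads each. In 24 of them the control reads came from both strands, and 17 were 29 to 31 bp long. The same 57.8 kb also held 28 peaks above the level and 4 without negative reads, and all 61 together gave 3116 against 911 reads (1.03, 0.957 to 1.11).

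The other groups were far smaller. On chromosome 15 from 79907143 to 79914223, 4 peaks held 148 against 60 reads (0.743, 0.547 to 1.02), and 1 further listed peak there was above the level. On chromosome 3 from 107533251 to 107543871, 4 peaks held 130 against 60 (0.653, 0.477 to 0.902), and 1 further peak had no negative read. On chromosome 8 from 73389698 to 73397776, the 4 peaks were the only listed ones and held 102 against 71 (0.433, 0.317 to 0.594). On chromosome 19 from 4309897 to 4316424, 3 peaks held 94 against 55 (0.515, 0.365 to 0.732) among 6 listed. On X from 166407873 to 166421840, 3 peaks held 95 against 41 (0.698, 0.479 to 1.03) among 8 listed, which together gave 403 against 79 (1.54, 1.21 to 1.98). The remaining groups of 3 peaks, equal in size to the last 2, lie on chromosome 15 from 98860974 to 98869561 (96 against 65 reads, 0.445, 0.321 to 0.619) and on chromosome 17 from 27692618 to 27699344 (84 against 36, 0.703, 0.470 to 1.07). Of these 8 groups of 3 or more, those on chromosome 8, on chromosome 17 and this second one on chromosome 15 held no other listed peak, and the other 5 spans also held peaks above the level or without negative reads.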

How the data were processed

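RAP1-bound chromatin was sequenced on the Genome Analyzer IIx, and 1 deposited peak list for the whole series was used. Per the file headers it gives pooled positive and negative read counts per peak and per strand, not normalised, and the highest window as a coverage signal with its position. The deposited folds were read as log2 values of (positive + 1) over (scaled negative + 1). The factor of 3.32 was solved from the 286 entries that gave a value above 1, of which 252 returned it within 0.001. Most of the 2444 strand entries with negative reads at or below the level, and of the 3908 above it, did not return it. On chromosome 3 from 59214850 to 59214878, 14 positive and 45 negative reverse reads stood beside a deposited reverse fold of 2.585. Most folds of such entries thus did not carry the scaled negative strand reads. The deposited false discovery rate is a q-value, and the deposited lengths and mode offsets are in bp. The build is mm9, per the submitters' processing notes; the aligner and the peak caller are not given in the sources used here. Whether the input entered the negative set is not stated either. Depth per library is unknown. No sequence was printed, since none of the build of the list was used.

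Ratios have exact conditional binomial and shares exact Clopper-Pearson 95% intervals, which cover counting error only. The code was tested on simulated data. No test between libraries was run. The members, classes and distances were chosen with earlier results of these data known. Peaks were named by fixed rules: the 10 with most negative reads, the 5 best ranked, the 5 lowest ratios with at least 10 negative reads, the 5 longest, the 3 nearest the threshold on each side and the 6 largest groups. The peaks with whole-peak negative reads and the groups tied in size with the last of the 6 were added after their values were seen. Alternatives changed the factor, the columns, the list and the distances. Python 3.11.15, numpy 2.4.6, pandas 2.3.3, scipy 1.17.1 and matplotlib 3.10.9 were used.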

Additional observations from a re-analysis of the deposited data

How the results depend on the processing

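The number of 2001 peaks depends on which columns and which scale are read. It was 1383 with the factor 20% lower, 2478 with it 20% higher, 2001 with 1 read added to both sets and 1827 of 29361 when peaks were merged within 1 kb. Without scaling it was 70, with both strands required at or under 1 it was 242, with the whole interval at or under 1 it was 472, and with whole-peak reads 0. The better ranked 50% held 951 (6.26% of it) and peaks with a deposited false discovery rate at or under 0.01 held 1068 (6.28%), fewer because the list is shorter.

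With the interval wholly at or under 1, the shares on chromosomes 11, 17, 18 and 1 were 2.60%, 2.74%, 0.516% and 1.06%, the neighbour share within 10 kb 5.30%, the proximal 2 Mb share 5.93%, the median length 40.5 bp and the median mode offset 35 bp. With at least 10 negative reads, chromosomes 11 and 17 gave 8.54% and 8.28%. In the better ranked 50% the neighbour share was 5.57% and the mode offset 42 bp, and at a false discovery rate at or under 0.01 they were 6.09% and 41.5 bp. Without the largest group the neighbour share was 8.01% and the proximal share 2.08%. Under 1 kb and 100 kb the neighbour shares were 3.40% and 35.6%. Windows of 1 Mb and 5 Mb held 1.75% and 6.30% at the distal and 2.50% and 5.30% at the proximal ends, as their sizes differ. Except for the sizes of lists and windows, the cause was not tested. No paired analysis was possible because the list holds no column for any single library, and leaving out each replicate was not run for the same reason.

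For the peaks named by rule and the 8 with whole-peak negative reads, 37 in all, every ratio stayed within its interval with the factor 20% lower or higher and with 1 read added, and all 37 moved beyond theirs without scaling. Reads per peak limit most single ratios, and the depth of each library is unknown.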

Other observations

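A deposited single-strand log2 fold below 0, meaning more scaled negative than positive reads in the window it describes, was listed for 110 of the 2001 peaks (5.50%, exact 95% interval 4.54 to 6.59) and for 25 of the 3706 peaks with negative reads above the level (0.675%). The fold comes from the same read sets as the rule, but most folds of strands with negative reads did not carry the scaled negative strand reads. On chromosome 8 from 8647348 to 8647389, 15 positive and 40 negative forward reads stood beside a forward fold of 3.7. The 5.50% is therefore not the share of peaks with more scaled negative than positive reads on a strand.

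In 1426 of the 2501 bins of 1 Mb with a listed peak, no peak was at or below the negative level. Another 608 bins held 1, 253 held 2 and 214 held 3 or more. After the values were seen, 11 bins with 8 or more were singled out. The fullest, on chromosome 11 from 3 to 4 Mb, held 32 of 108 listed peaks (29.6%, 21.2 to 39.2), 29 of them in the 1 dense group. The others with 9 or more were on chromosome 19 from 4 to 5 Mb (11 of 40, 27.5%, 14.6 to 43.9), chromosome 17 from 35 to 36 Mb (9 of 49, 18.4%) and chromosome 8 from 73 to 74 Mb (9 of 26, 34.6%, 17.2 to 55.7).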
